A study of Mus musculus with 60 samples.

Results

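10 reference genes of the nanoString nCounter Mouse Neuroinflammation Panel are described here across brain regions, times of day and tumor status. They are Aars, Lars, Gusb, Cnot10, Mto1, Asb10, Tbp, Csnk2a2, Supt7l and Xpnpep1, and the rows of the normalized matrix with these symbols were taken, 10 of the 770 genes listed. All 10 were found, and 9 of the 10 had a mean log2 value of at least 5. The rule that names the genes uses no measured value, but the set was chosen with earlier results of these data known, and Lars was singled out with its dark against light difference known, so its values by time of day stand as a description.

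RNA came from the hippocampus, hypothalamus and brain stem of 20 female Balb/C mice, 13 weeks old, on a cycle of 14 h of light and 10 h of dark. Tumor mice had received 67NR cells, mouse mammary carcinoma cells that do not metastasize and descend from 1 tumor, in mammary glands, and vehicle mice had received only the DMEM medium. Mice were killed 25 days later, either in the middle of the dark phase (ZT19, that is 19 h after lights on) or of the light phase (ZT7). Each of the 4 groups had 5 mice, and 56 of the 60 listed samples had values, 20 from hippocampus, 17 from hypothalamus and 19 from brain stem. The groups lacking samples were vehicle at ZT19, with 3 hypothalamus and 4 brain stem samples, and vehicle at ZT7, with 4 hypothalamus samples. Each phase had 1 time point, so a difference between the times is a difference between ZT19 and ZT7 and describes no full cycle. All mice had been perfused with saline, and each sample was a whole dissected region. In such bulk samples fewer cells of a type and less RNA per cell cannot be told apart.

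A reference gene is a transcript that is held to vary little between samples, so that other transcripts may be scaled to it. Such genes usually serve functions that every cell needs, as in translation, transcription, RNA turnover or the breakdown of proteins and sugars. Aminoacyl-tRNA synthetases, the class to which Aars and Lars belong, attach an amino acid to its tRNA, and their genes are known to respond to amino acid supply. In the brain, neurons, astrocytes, oligodendrocytes and microglia differ in their share between regions, and many transcripts are known to follow the day.

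The sequences before the start sites of Aars and Tbp are shown because Aars had the widest difference between regions and Tbp differed both between regions and between times. They are the 250 bases before the RefSeq start site on GRCm38.p6, chr8:111033592-111033841 and chr17:15499638-15499887, both on the plus strand. Capitals mark matches to the letters searched, and the Tbp stretch holds none.

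Aars: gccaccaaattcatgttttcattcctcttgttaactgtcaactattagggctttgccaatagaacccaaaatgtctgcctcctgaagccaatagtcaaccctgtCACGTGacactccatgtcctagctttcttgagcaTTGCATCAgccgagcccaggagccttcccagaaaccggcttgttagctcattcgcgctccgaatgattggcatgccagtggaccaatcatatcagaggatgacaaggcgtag

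Tbp: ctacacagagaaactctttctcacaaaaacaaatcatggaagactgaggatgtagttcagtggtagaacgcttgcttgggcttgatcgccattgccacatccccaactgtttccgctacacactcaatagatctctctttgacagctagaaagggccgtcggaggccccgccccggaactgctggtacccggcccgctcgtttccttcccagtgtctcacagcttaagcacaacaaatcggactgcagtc

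4 motifs were searched on both strands in the 300 bases around each start site, the E-box CACGTG, the D-box TTATGTAA, the amino acid response element TGATGNAA and the TATA box TATAAA. Of the 10 reference genes, 9 had an entry, with 10 start sites in all. Lars had no entry, so its promoter was not searched. Only the Aars entry held any of the 4 motifs. It had an E-box at positions -146 to -141 and a TGATGNAA match on the opposite strand at -112 to -105 from the start site. The latter is the match in capitals furthest to the right. Another such match lay at 9 to 16 after the start. Of all 32851 promoters in the table, 7.15% held the E-box, 0.938% the D-box, 3.97% the amino acid response element and 13.6% the TATA box. The letters alone show neither binding nor use.

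The values were log2 expression values that had been quantile normalized, so that sample medians lay between 8.07 and 8.09. A value therefore gives a gene's place relative to the rest of the panel in its sample, and a level is compared below between samples of 1 gene, not between genes. Asb10 alone is called dim, for the low values of its probe, which are no measure of RNA amount against other genes. The hippocampus labels were checked with Nrgn, Slc17a7, Tbr1 and Camk4, genes of excitatory forebrain neurons. Their summed log2 level was 14.1 to 14.7 in hippocampus, 10.8 to 11.4 in hypothalamus and 10.7 to 12.0 in brain stem. The ranges of hypothalamus and brain stem overlap, so these genes do not tell those regions apart. Neuron, oligodendrocyte, astrocyte, microglia and endothelial markers were present in all 3 regions.

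Region moved most of the reference genes. In the fit of all 56 samples with the mouse as a random block, 9 of 10 differed between hippocampus and brain stem at an adjusted p under 0.05, where 76.6% of the panel did. Between hippocampus and hypothalamus 6 of 10 differed, against 71.7% of the panel, and between hypothalamus and brain stem 7 of 10, against 66.5%. Samples of both regions did not overlap at all for 3 genes between hippocampus and brain stem, 2 between hippocampus and hypothalamus and 1 between hypothalamus and brain stem, against 26.2%, 19.7% and 15.6% of the panel. These shares lay near those of the panel, and the median size of the difference for the 10 genes was 0.28, 0.22 and 0.17 (log2) where it was 0.33, 0.26 and 0.23 over all genes.

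**Figure D1:**
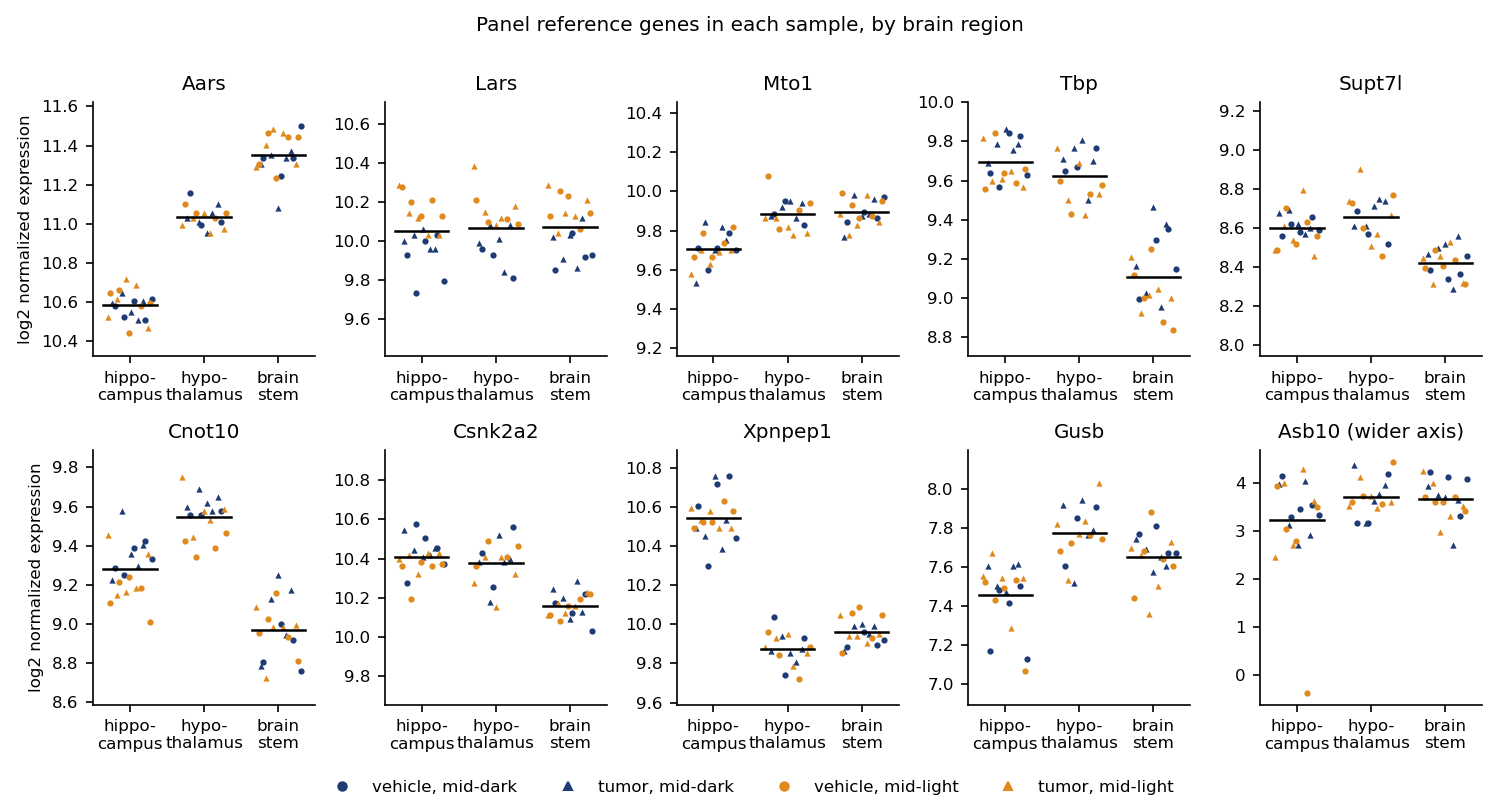
Log2 normalized expression (y axis) of each reference gene in 20 hippocampus, 17 hypothalamus and 19 brain stem samples (x axis), with circles for vehicle, triangles for tumor mice, blue for ZT19 and orange for ZT7, and a line at the region mean. Axes span the same log2 range except for Asb10. Aars rises from hippocampus to brain stem, Xpnpep1 is highest in hippocampus, and the 3 means of Lars lie level.

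Among the genes of translation, Aars, which encodes the cytoplasmic alanyl-tRNA synthetase, ranged from 10.44 to 10.72 in hippocampus with a median of 10.59. It ranged from 10.95 to 11.16 in hypothalamus with a median of 11.03, and from 11.08 to 11.50 in brain stem with a median of 11.34. The hippocampus samples overlapped with neither of the other regions, and 1 brain stem sample, of a tumor mouse at ZT19, lay at 11.08 within the hypothalamus range. Aars was 0.77 ± 0.03 (SE) lower in hippocampus than in brain stem on the log2 scale, a 1.70-fold difference (adjusted p = 5.2e-31). It was 0.45 ± 0.03 lower in hippocampus than in hypothalamus (adjusted p = 8.9e-21) and 0.32 ± 0.03 lower in hypothalamus than in brain stem (adjusted p = 1.2e-14). Region took 94.5% of its sum of squares over the samples.

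Lars, which encodes the cytoplasmic leucyl-tRNA synthetase and is also known as a leucine sensor of the mTORC1 pathway, had region means of 10.05 ± 0.14 in hippocampus (SD, n = 20), 10.07 ± 0.14 in hypothalamus (SD, n = 17) and 10.07 ± 0.13 in brain stem (SD, n = 19). The range of these means, 0.016, was the second smallest of the 770 genes. The 3 differences between regions were -0.01, with 95% intervals of -0.06 to 0.05 for hippocampus against brain stem and -0.07 to 0.05 for hypothalamus against brain stem, and 0.00 for hippocampus against hypothalamus, with -0.06 to 0.06. These rest on the scaling of the samples. Centring each sample on the mean of the panel's 13 reference probes moved the differences of the 10 genes by a median of 0.11 between hippocampus and hypothalamus, -0.13 between hypothalamus and brain stem and -0.03 between hippocampus and brain stem. The 13 probes include dim Asb10. The mean of the 10 genes was 8.96 in hippocampus and 9.06 in hypothalamus. That of the 9 without Asb10 was 9.59 and 9.65, so part of the shift between these regions came with Asb10. Centring without Asb10 was not run. Lars centred on the 13 probes was 0.11 higher in hippocampus than in hypothalamus (adjusted p = 0.0024) and 0.14 lower in hypothalamus than in brain stem (adjusted p = 0.00013).

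Mto1, whose product modifies mitochondrial tRNAs, ranged from 9.53 to 9.84 in hippocampus, from 9.78 to 10.08 in hypothalamus and from 9.77 to 9.99 in brain stem. It was 0.19 ± 0.02 lower in hippocampus than in brain stem (adjusted p = 1.3e-09) and 0.18 ± 0.02 lower than in hypothalamus (adjusted p = 8.7e-09). Hypothalamus and brain stem gave a difference of 0.00, with an interval of -0.05 to 0.05, but -0.14 (adjusted p = 9.9e-05) when centred on the 13 probes, where that between hippocampus and hypothalamus shrank to -0.07 (adjusted p = 0.025). Within regions it had the smallest SD of the 10 genes, 0.075.

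Of the genes of transcription, Tbp, which encodes the TATA-binding protein, ranged from 9.56 to 9.86 in hippocampus with a median of 9.65 and from 8.84 to 9.46 in brain stem with a median of 9.04, without overlap. In hypothalamus it ranged from 9.42 to 9.81 with a median of 9.65. Tbp was 0.58 ± 0.04 higher in hippocampus than in brain stem (adjusted p = 5.9e-19), and 0.52 ± 0.04 higher in hypothalamus than in brain stem (adjusted p = 9.5e-16). Hippocampus and hypothalamus differed by 0.07, with an interval of -0.02 to 0.15 (adjusted p = 0.14), and by 0.17 (adjusted p = 8.0e-05) when centred on the 13 probes. Supt7l, a subunit of the SAGA complex that modifies histones at genes, was 0.18 ± 0.03 higher in hippocampus than in brain stem (adjusted p = 1.1e-06) and 0.23 ± 0.03 higher in hypothalamus than in brain stem (adjusted p = 3.5e-08). Its difference between hippocampus and hypothalamus was -0.05, with an interval of -0.11 to 0.02. Centred on the 13 probes, that difference was 0.06 (adjusted p = 0.12), and that between hypothalamus and brain stem was 0.09 (adjusted p = 0.012).

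Cnot10, a subunit of the CCR4-NOT complex that shortens the tails of mRNAs, was highest in hypothalamus, where it ranged from 9.34 to 9.75 with a median of 9.58. It ranged from 9.01 to 9.58 in hippocampus with a median of 9.27 and from 8.72 to 9.25 in brain stem with a median of 8.99. Hypothalamus and brain stem did not overlap. Cnot10 was 0.58 ± 0.04 higher in hypothalamus than in brain stem (adjusted p = 9.6e-20), 0.32 ± 0.03 higher in hippocampus than in brain stem (adjusted p = 6.1e-12) and 0.27 ± 0.03 lower in hippocampus than in hypothalamus (adjusted p = 3.3e-09). The last was -0.16 (adjusted p = 0.00021) when centred on the 13 probes.

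Csnk2a2, a catalytic subunit of the protein kinase CK2, was 0.25 ± 0.03 higher in hippocampus than in brain stem (adjusted p = 2.5e-11) and 0.22 ± 0.03 higher in hypothalamus than in brain stem (adjusted p = 3.5e-09). Its samples in hippocampus and hypothalamus covered nearly the same range, 10.19 to 10.58 and 10.15 to 10.56, with a difference of 0.02 (adjusted p = 0.46). Centred on the 13 probes, this difference was 0.13 (adjusted p = 0.0011), and that between hypothalamus and brain stem was 0.09 (adjusted p = 0.025). Xpnpep1, a cytosolic aminopeptidase that cleaves before proline, set hippocampus apart instead. It ranged from 10.30 to 10.76 there with a median of 10.53, from 9.72 to 10.04 in hypothalamus with a median of 9.87 and from 9.85 to 10.09 in brain stem with a median of 9.95. No hippocampus sample overlapped with the other regions. Xpnpep1 was 0.67 ± 0.03 higher in hippocampus than in hypothalamus, a 1.59-fold difference (adjusted p = 1.7e-24), and 0.59 ± 0.03 higher than in brain stem (adjusted p = 2.4e-23). The step of -0.08 ± 0.03 from brain stem to hypothalamus (adjusted p = 0.032) was lost without any 1 of mice 1, 6, 8, 10 and 22, with values of -0.07 to -0.06 (adjusted p of 0.0519 to 0.0645), and with the mouse as a fixed replicate block (-0.06, adjusted p = 0.1), and it was -0.21 (adjusted p = 2.3e-06) when centred on the 13 probes.

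Gusb, the lysosomal beta-glucuronidase, was lowest in hippocampus, where it ranged from 7.07 to 7.67 with a median of 7.50. It ranged from 7.52 to 8.03 in hypothalamus with a median of 7.77 and from 7.36 to 7.88 in brain stem with a median of 7.67, so that all regions overlapped. It was 0.32 ± 0.05 lower in hippocampus than in hypothalamus (adjusted p = 2.2e-08) and 0.20 ± 0.04 lower than in brain stem (adjusted p = 5.2e-05), the former -0.21 (adjusted p = 0.00011) when centred on the 13 probes. The difference of 0.12 ± 0.05 between hypothalamus and brain stem (adjusted p = 0.022) did not pass the test without mouse 11 (0.10, adjusted p = 0.052) or mouse 28 (0.10, adjusted p = 0.085), and it turned to -0.02 (adjusted p = 0.79) when centred on the 13 probes.

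Asb10, a SOCS box protein of ubiquitin ligases, stood apart as the dimmest probe of the set. Its values ranged from 2.70 to 4.25 in brain stem, from 3.17 to 4.45 in hypothalamus and from -0.37 to 4.29 in hippocampus, and the lowest is also the lowest value of the whole matrix, in a vehicle mouse at ZT7, mouse 22. Asb10 was 0.45 ± 0.21 lower in hippocampus than in brain stem (adjusted p = 0.047) and 0.48 ± 0.21 lower than in hypothalamus (adjusted p = 0.043). Without mouse 22 these were -0.25 (adjusted p = 0.13) and -0.31 (adjusted p = 0.082), and the first was lost in 14 and the second in 9 of the 20 fits that left out 1 mouse.

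The RNA in solution also differed by region, with a median of 1176 ng/µl in hippocampus, 687.4 ng/µl in hypothalamus and 2699 ng/µl in brain stem, and so did the median 260/230 ratio, at 2.32, 2.05 and 2.02. With both as covariates Aars stayed 0.76 lower (adjusted p = 9.5e-25), Tbp 0.57 higher (adjusted p = 2.4e-14) and Xpnpep1 0.57 higher (adjusted p = 1.2e-17) in hippocampus than in brain stem. With them the Gusb difference between hypothalamus and brain stem (0.09, adjusted p = 0.29) and both of Asb10 (-0.52, adjusted p = 0.086, and -0.63, adjusted p = 0.07) did not pass the test, while that of Tbp between hippocampus and hypothalamus did (0.14, adjusted p = 0.027). The 260/280 ratio was not a covariate. It ranged from 1.79 to 2.03 in hippocampus, from 1.80 to 2.04 in hypothalamus and from 1.34 to 2.01 in brain stem. In brain stem at ZT19 the low ratios were all of tumor mice, and their part was not tested. The cell markers moved with region too. All 6 oligodendrocyte markers were lower in hippocampus than in brain stem and than in hypothalamus at an adjusted p under 0.05, and their summed log2 level was 14.5 to 15.8 in hippocampus samples, 15.4 to 16.1 in those of hypothalamus and 16.4 to 16.6 in brain stem. All 4 microglia markers were higher in hippocampus than in both other regions, by a median of 0.50 against brain stem and 0.27 against hypothalamus. All 5 neuron markers differed in every pair of regions, 4 of the 5 higher in hippocampus than in brain stem. All 4 endothelial markers were lower in hippocampus than in brain stem. Of the 5 astrocyte markers, 1 was higher and 3 were lower in hippocampus than in brain stem, and 5 were lower than in hypothalamus. Over the panel 76.6% of genes differed between hippocampus and brain stem, 71.7% between hippocampus and hypothalamus and 66.5% between hypothalamus and brain stem. The part of these cell types in the differences between regions was not tested.

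**Figure D2:**
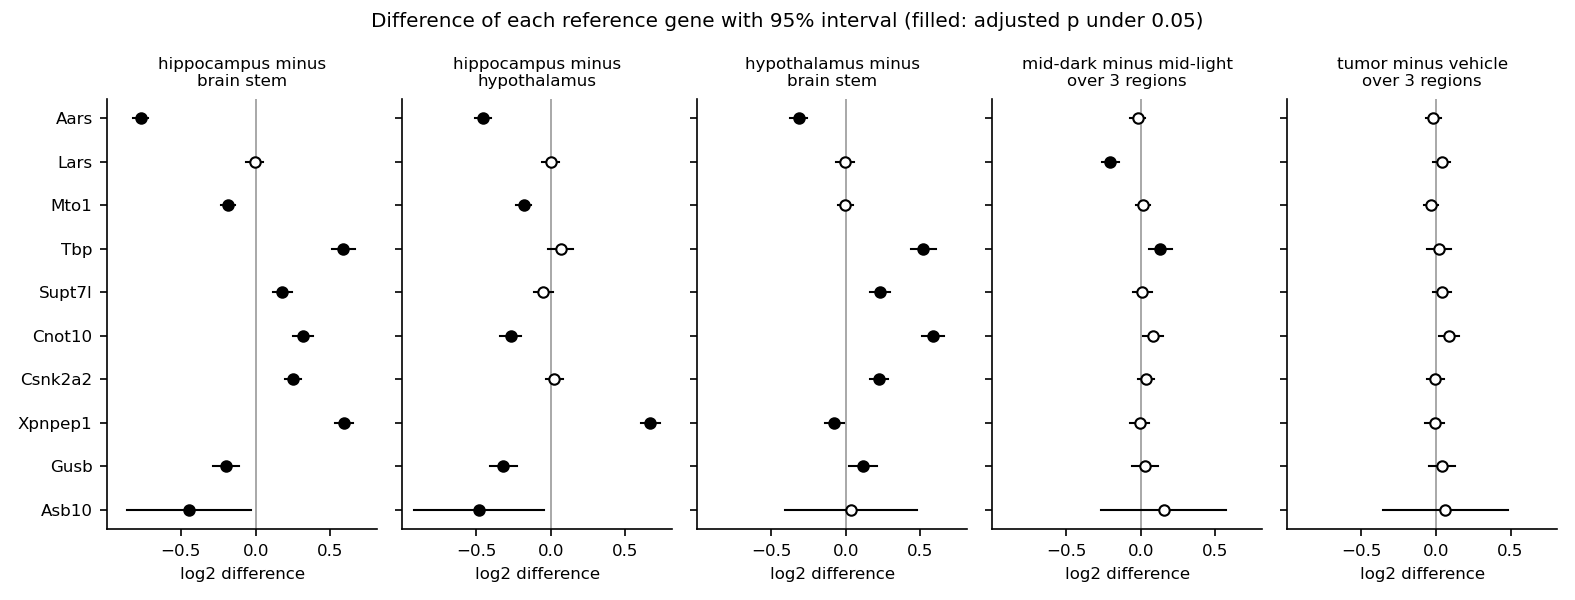
Log2 difference (x axis) of each reference gene (y axis) with its 95% interval, for the 3 pairs of regions, ZT19 minus ZT7 and tumor minus vehicle over 3 regions, filled where the adjusted p was under 0.05. Most genes are filled between regions, Lars and Tbp between times, and none with tumor. The unadjusted intervals of Cnot10 also leave out 0 between times and with tumor.

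Within a region the reference genes other than Asb10 were steady, but so were many other genes. The SD within regions was under the panel's median of 0.19 for 9 of the 10, all but Asb10, and the median of the 10 was 0.112. Of the 636 panel genes that averaged 5 or more on the log2 scale, 385 also lay under 0.19. So did 11 of the 12 common housekeeping genes compared below, whose median SD was 0.106. Low spread within regions was thus not particular to the reference genes. Mto1, at 0.075, ranked 23 of 770 from the smallest, Aars, at 0.080, ranked 38, and Csnk2a2, at 0.089, ranked 58. Xpnpep1 and Supt7l followed at 0.091 and 0.092, and Cnot10, Lars, Tbp and Gusb lay between 0.13 and 0.14. Asb10, at 0.68, ranked 752. Over all samples the order was another, since SDs then hold the regions. Mto1 was again lowest of the 10 at 0.12, but Aars, at 0.34, ranked 399 and Xpnpep1, at 0.32, ranked 374.

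**Figure D3:**
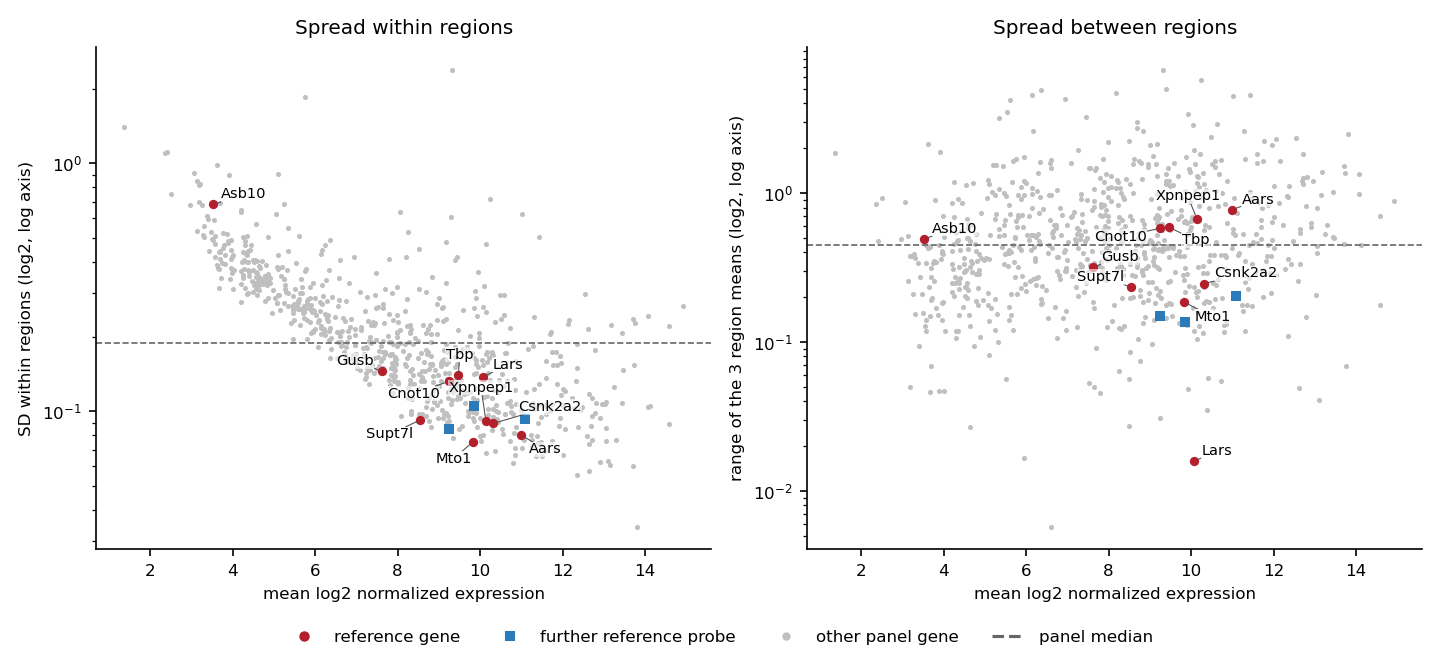
SD within regions (left, y axis, log scale) and range of the 3 region means (right, y axis, log scale) against the mean log2 value (x axis) for 770 genes, with the 10 reference genes in red and 3 further reference probes as blue squares. The dashed line is the panel median. Left, all reference genes but Asb10 lie below the line, and right, 5 of them lie below it, with Lars the lowest of the 10 at 0.016.

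The log2 ratio of a pair of genes does not move with a scale factor common to a sample, and its spread was taken for all 45 pairs. Quantile normalization is not such a single factor, so the ratios still depend on that step. Over all samples the steadiest pair was Csnk2a2 and Supt7l, with an SD of 0.13, and the least steady without Asb10 was Aars and Xpnpep1, with 0.62. The log2 ratio of Aars to Xpnpep1 had a mean of 0.04 in hippocampus, 1.16 in hypothalamus and 1.39 in the brain stem. Within regions the same ratio had an SD of 0.12, and the steadiest pair was then Aars and Mto1, with 0.10. The mean of a gene's ratio SDs to the other 8 genes without Asb10 was lowest for Supt7l over all samples, at 0.24, and for Mto1 within regions, at 0.13. Within regions it was highest for Gusb, at 0.18, and next for Lars, at 0.17. The widest pair there was Lars and Tbp, with 0.20.

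**Figure D4:**
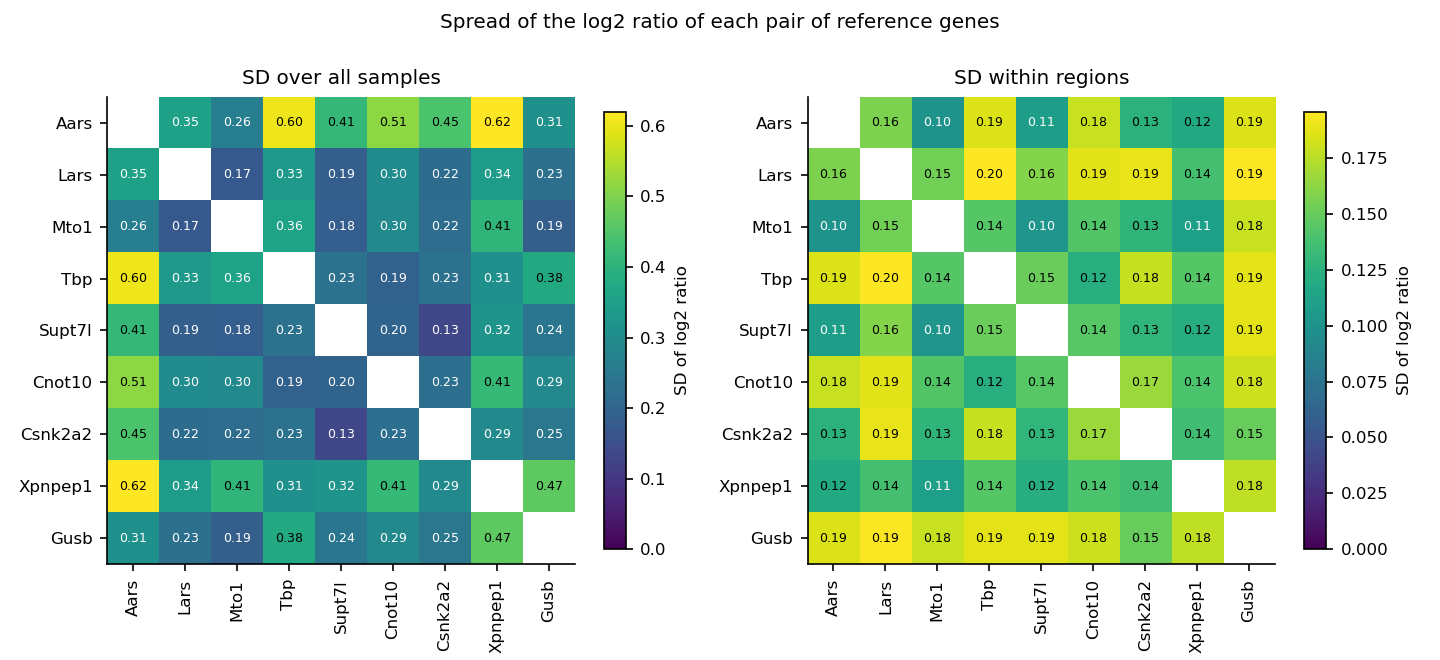
SD of the log2 ratio (color and cell values) for each pair of the 9 reference genes without Asb10, over all 56 samples on the left and within regions on the right. Pairs with Aars or Xpnpep1 stand out on the left, up to 0.62, and pairs with Lars, Tbp or Gusb on the right, up to 0.20.

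Between the times of day, 2 of the 10 genes differed over the 3 regions at an adjusted p under 0.05, where 13.5% of the panel did. Lars was lower and Tbp higher at ZT19.

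Lars was lower at ZT19 in every region. In the hippocampus of vehicle mice it was 9.93, 9.73, 10.00, 10.03 and 9.80 at ZT19 and 10.27, 10.20, 10.13, 10.21 and 10.13 at ZT7. In that of tumor mice it was 10.00, 10.03, 10.06, 9.96 and 9.96 at ZT19 and 10.29, 10.14, 10.12, 10.03 and 10.03 at ZT7. The times did not overlap in vehicle mice and overlapped in tumor mice between 10.03 and 10.06.

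In the hypothalamus of vehicle mice Lars was 9.96, 9.93 and 9.81 at ZT19 and 10.21, 10.10, 10.11 and 10.09 at ZT7. In that of tumor mice it was 9.99, 10.08, 10.01, 9.84 and 10.08 at ZT19 and 10.38, 10.15, 10.08, 10.12 and 10.18 at ZT7. The vehicle samples were again separate, and in tumor mice 2 ZT19 samples reached the lowest ZT7 sample at 10.08.

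In the brain stem of vehicle mice Lars was 9.85, 10.04, 9.92 and 9.93 at ZT19 and 10.13, 10.25, 10.23, 10.06 and 10.14 at ZT7. In that of tumor mice it was 10.02, 9.91, 10.03, 9.86 and 10.12 at ZT19 and 10.29, 10.04, 10.14, 10.13 and 10.21 at ZT7. Vehicle mice did not overlap, and in tumor mice 1 ZT19 sample lay within the ZT7 range. Genes whose 2 vehicle groups did not overlap made up 4.16% of the panel in hippocampus, 7.92% in hypothalamus and 5.84% in the brain stem, and those of the tumor groups 1.95%, 2.47% and 2.34%.

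**Figure D5:**
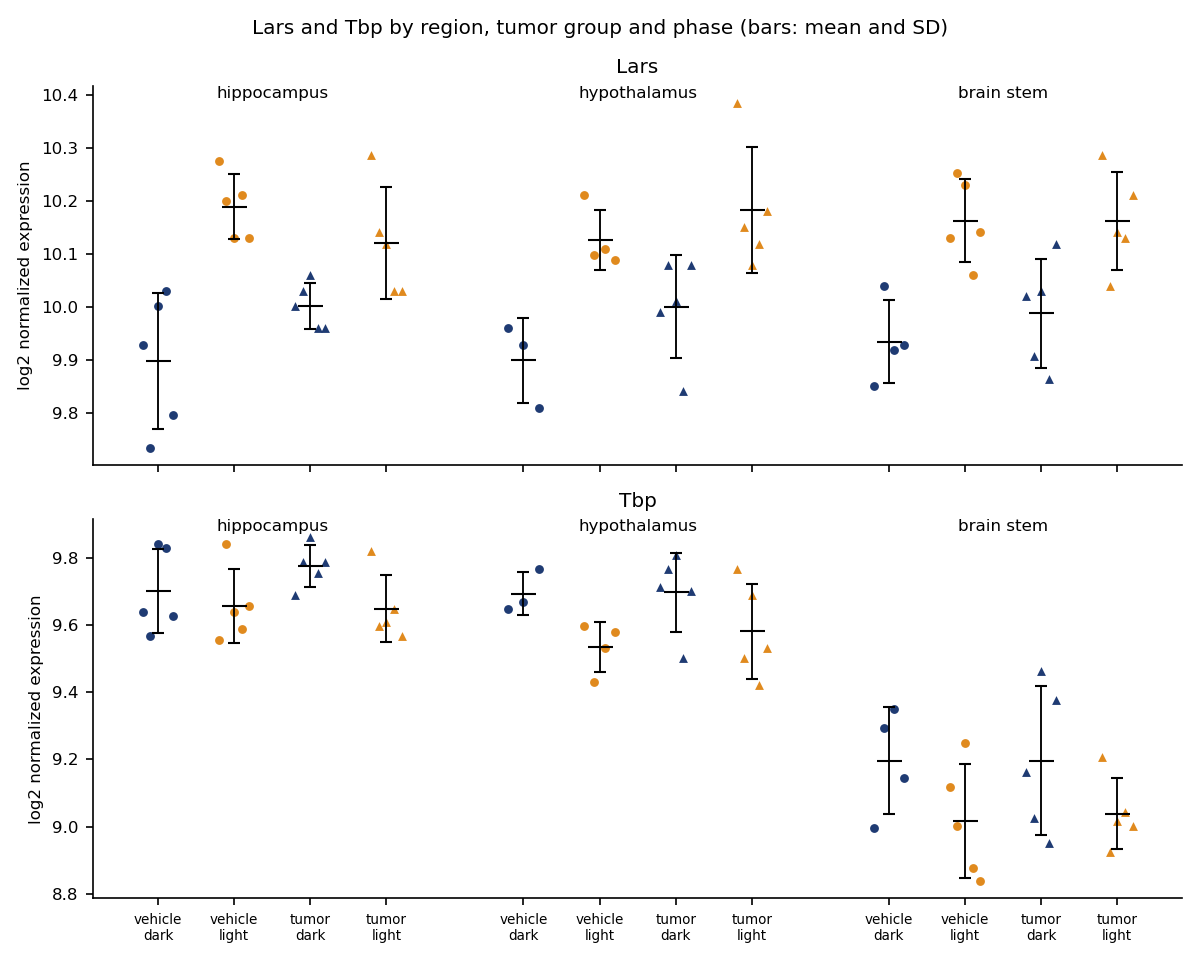
Log2 normalized expression (y axis) of Lars and Tbp in each sample by region, tumor group and phase (x axis), blue for ZT19 and orange for ZT7, circles for vehicle and triangles for tumor mice, with bars at the mean and SD of 3 to 5 mice. Lars is lower at ZT19 in all 6 pairs of groups, and in vehicle mice the pairs do not overlap.

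The ZT19 minus ZT7 difference of Lars was -0.21 ± 0.04 in hippocampus (SE, adjusted p = 0.013), -0.20 ± 0.05 in hypothalamus (adjusted p = 0.046) and -0.20 ± 0.04 in brain stem (adjusted p = 0.013). Lars was the only reference gene called in each, where 5.59%, 2.34% and 5.46% of the panel were. Over the 3 regions the difference was -0.20 ± 0.03, a 1.15-fold step (adjusted p = 3.8e-07). The differences of the regions from each other were 0.00, with intervals of -0.11 to 0.11, -0.12 to 0.12 and -0.12 to 0.12 (adjusted p of 0.99 to 1.00), and none of the 10 genes was called there, where 0.13%, 0.39% and 0% of the panel were. In the hypothalamus the call was lost in the fits without mice 2, 3, 4, 5, 6, 7, 8, 11, 19, 22, 28, 29 or 30, 13 of 17, with differences of -0.22 to -0.18 and adjusted p of 0.056 to 0.14.

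Averaged over its regions, each mouse kept to its time. All 10 ZT19 mice lay below the region means, by 0.23 to 0.01, and all 10 ZT7 mice above them, by 0.03 to 0.26. Of the ZT19 mice 7 lay below the mean in every region measured, and of the ZT7 mice 6 lay above it in every region. Time of day within regions took 55.7% of the sum of squares of Lars, the fifth largest share of the panel, and 0.13% to 5.1% for the other 9 genes.

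In vehicle mice the difference of Lars was -0.29 in hippocampus (adjusted p = 0.016), -0.23 in hypothalamus (adjusted p = 0.36) and -0.23 in brain stem (adjusted p = 0.09), and in tumor mice it was -0.12 (adjusted p = 0.49), -0.18 (adjusted p = 0.31) and -0.17 (adjusted p = 0.28). Of the panel 2.47%, 0.26% and 1.3% were called in vehicle and 1.04%, 1.04% and 0.78% in tumor mice. The interaction of tumor and time over the 3 regions was 0.09 ± 0.06, with an interval of -0.02 to 0.20 (adjusted p = 0.92), so the smaller size in tumor mice was not separated from none.

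Against the mean of the 8 other genes without Asb10, Lars was 0.25 lower at ZT19 in hippocampus, 0.24 in hypothalamus and 0.22 in the brain stem. Against each of these 8 alone it was 0.18 to 0.33 lower over the regions, least against Aars, the other aminoacyl-tRNA synthetase, and most against Tbp. The mean of the 9 genes without Asb10 differed by 0.01 between the times over the regions, and that of the 8 without Lars by 0.03. With the RNA concentration and the 260/230 ratio as covariates, Lars was 0.21 lower (adjusted p = 4.2e-08).

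The 3 genes whose deviations from the region means were most like those of Lars over the 56 samples were Opalin, a myelin protein of oligodendrocytes (Pearson r = 0.75), Pms2, a mismatch repair gene (r = 0.61), and Tgfbr1, a receptor of TGF-beta (r = 0.60). The samples share mice and time of day. From the means of region and time, the r of Lars and Opalin was 0.21. Opalin was also lower at ZT19, by 1.07 in hippocampus, 1.05 in hypothalamus and 1.23 in the brain stem, and the times did not overlap in any region, a much larger step than that of Lars. At an adjusted p under 0.05, where 13.5% of the panel differed between the times, 3 of the 6 oligodendrocyte markers were lower at ZT19 over the regions. Their summed log2 level had a median of 15.2 at ZT19 and 15.6 at ZT7 in hippocampus, of 15.7 and 15.7 in hypothalamus and of 16.5 and 16.6 in brain stem, ranging from 14.5 to 16.6 at ZT19 and from 15.2 to 16.6 at ZT7, and none of the 6 was at the lowest value throughout. The r of this sum with Lars was 0.17 from the region means and -0.11 from the means of region and time. Its part in the difference of Lars was not tested. For Mto1, the steadiest of the 10 reference genes within regions, the most alike were Rb1cc1, an autophagy gene (r = 0.65), and Birc2, an inhibitor of apoptosis (r = 0.60).

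Tbp moved the other way. In hippocampus it ranged from 9.57 to 9.86 at ZT19, median 9.77, and from 9.56 to 9.84 at ZT7, median 9.62. In hypothalamus the ranges were 9.50 to 9.81, median 9.71, and 9.42 to 9.77, median 9.53, and in brain stem 8.95 to 9.46, median 9.16, and 8.84 to 9.25, median 9.01. The times overlapped in every region, though not between the 3 and 4 vehicle samples in hypothalamus, where 7.92% of the panel did not overlap either. The difference over the regions was 0.13 ± 0.04, a 1.09-fold step (adjusted p = 0.018), with 0.09 in hippocampus, 0.14 in hypothalamus and 0.17 in the brain stem, none called within a region (adjusted p of 0.28 to 0.36). It did not pass the test without mouse 11 (0.11, adjusted p = 0.051), without mouse 28 (0.11, adjusted p = 0.069) or when centred on the 12 reference probes other than Lars (0.09, adjusted p = 0.11).

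The other genes did not pass the test for time of day over the regions. Cnot10 came nearest, at 0.08 ± 0.03 higher at ZT19 (adjusted p = 0.1, unadjusted p = 0.02), with 0.15 in hippocampus, 0.10 in hypothalamus and 0.00 in the brain stem. It passed without mouse 1 (0.10, adjusted p = 0.025) or without mouse 3 (0.10, adjusted p = 0.035). Its vehicle samples of the 2 times did not overlap in hippocampus or hypothalamus, and neither did those of 4.16% and 7.92% of the panel. In hypothalamus these were only 3 and 4 samples. Of the 7 genes without Lars, Tbp and Asb10 the differences lay between -0.02 and 0.08, and their 95% intervals within -0.07 to 0.15. For Asb10 the interval was -0.26 to 0.57. No reference gene's time difference differed between regions, by an F test with 0 of 10 called, where 0.26% of the panel was called and 0 of 10 had an unadjusted p under 0.05.

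None of the 10 genes differed between tumor and vehicle mice over the regions, where 2.34% of the panel did, and 1 had an unadjusted p under 0.05. This was Cnot10, at 0.09 ± 0.03 higher in tumor mice (unadjusted p = 0.011, adjusted p = 0.21). In hypothalamus it ranged from 9.44 to 9.75 in 10 tumor samples, median 9.59, and from 9.34 to 9.58 in 7 vehicle samples, median 9.46. In hippocampus the medians were 9.33 and 9.24, and in brain stem 8.99 and 8.94, and the groups overlapped in all regions. Without mouse 5 the difference passed the test (0.11, adjusted p = 0.049).

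For the 9 genes without Asb10 the tumor differences lay between -0.03 and 0.09, and their 95% intervals within -0.08 to 0.16, while that of Asb10 was -0.35 to 0.48. Within single regions 0 of 10 were called in hippocampus, hypothalamus and brain stem, where 0.52%, 0.26% and 1.04% of the panel were, and 1, 1 and 0 had an unadjusted p under 0.05. In hippocampus this was Gusb, which ranged from 7.29 to 7.67 in tumor mice, median 7.55, and from 7.07 to 7.53 in vehicle mice, median 7.46 (0.17 ± 0.07 higher, adjusted p = 0.63). The interaction of tumor and time over the regions was called in 0 of 10, against 0.13% of the panel, with 0 of 10 at an unadjusted p under 0.05. Calls with unmoderated p values were 0 in each of these as well.

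For comparison, 3 further reference probes of the panel, Ccdc127, Fam104a and Tada2b, had region means within 0.14 to 0.21 of each other and SDs within regions of 0.085 to 0.1. Between pairs of regions 2, 2 and 3 of these 3 were called, with a median size of 0.07, 0.15 and 0.14, and 0 between the times or with tumor, with 0 at an unadjusted p under 0.05. Over the panel 76.6%, 71.7% and 66.5% of genes were called for these pairs, 13.5% between the times and 2.34% with tumor. Of 12 common housekeeping genes on the panel, among them Hprt and ribosomal proteins, 11 were called in each pair of regions. Their region means spanned 0.18 (Cox5b, of the respiratory chain) to 0.99 (Rps2, a ribosomal protein), median 0.55, where the median of the 10 reference genes was 0.40 and that of all genes 0.45. Over the regions 1 of the 12 differed between the times, Eif1, a translation initiation factor, at 0.13 ± 0.03 higher at ZT19 (adjusted p = 0.00038), and 0 of 12 with tumor. The median size of the time difference was 0.03 for the reference genes, 0.04 for the housekeeping genes and 0.06 for all genes.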

How the data were processed

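RNA was assayed with the nCounter panel, in which gene-specific probes are counted without amplification. The deposited values are log2 expression values. The authors made them from nCounter counts in nSolver by subtracting the negative controls and scaling to the positive controls and to panel content, and then quantile normalized them in Partek. The genes used for content normalization are not given in the sources used here, so the reference genes may have scaled these values. Quantile normalization gave all samples nearly the same distribution. The depth is unknown, since no raw counts were used, and the number of mice limits precision. Per the labels, samples that were outliers in the raw data were not normalized, and 4 of 60 samples had no values here. 1 blank row was left out. No value column was of unknown sample (0 columns).

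Groups were formed from the labels' region, injection and time, with the mouse number as the replicate. The members and lists were chosen with earlier results of these data known. limma 3.58.1 in R 4.3.3 fitted 12 group means to all 56 samples with the mouse as a random block (duplicateCorrelation, consensus correlation 0.14), for pairs of regions, time, tumor, their interaction and an F test of the time difference between regions. The 3 regions of a mouse are from the same animal, and their deviations from group means had a median correlation of 0.10, against -0.03 for other mice of the group. Block estimates can differ slightly from differences of plain means, since 4 mice lacked a region. Within each region 4 group means were fitted. p values were moderated and adjusted by Benjamini-Hochberg over the 770 genes, or 769 where 1 gene was constant, and calls had an adjusted p under 0.05. All 10 members were tested, and no filter on low values was applied. Named beside the members were the 3 genes with the highest Pearson r to Lars and to the member steadiest within regions, and the highest or lowest gene of a comparison list. 1 gene that this rule names is not reported here. Stability measures are descriptive. Fits were tested on simulated data whose samples shared no mouse effect, so the handling of the mouse block was not tested. Promoters are RefSeq's for GRCm38.p6, matched by symbol. Lars had no promoter entry and was named only. Descriptions used Python 3.11.15, numpy 2.4.6 and pandas 2.3.3, and plots matplotlib 3.10.9.

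Alternatives were median subtraction, centring on 13 reference probes, quantile normalization within regions, genes with a mean of at least 5, ordinary p values, RNA covariates, other blocks, parts of the mice and each mouse left out. Centring on the 12 probes other than Lars was chosen after seeing the data.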

Additional observations from a re-analysis of the deposited data

Results flagged for a closer look

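In 110 groups of a gene, 9 single samples lay far from the rest of their group by Dixon's gap test, which chance alone gives in about 1 in 20 groups. Asb10 had 4 of the 9, at -0.37 in the hippocampus of vehicle mouse 22 at ZT7 (others 2.79 to 3.95), 4.16 in the hippocampus of vehicle mouse 4 at ZT19 (others 3.30 to 3.55), 2.70 in the brain stem of tumor mouse 19 at ZT19 (others 3.64 to 3.95) and 3.32 in the brain stem of vehicle mouse 28 at ZT19 (others 4.08 to 4.23). Aars was 11.08 in the brain stem of tumor mouse 11 at ZT19 (others 11.31 to 11.37). Lars was 10.21 in the hypothalamus of vehicle mouse 2 at ZT7 (others 10.09 to 10.11). Gusb was 7.07 in the hippocampus of vehicle mouse 30 at ZT7 (others 7.43 to 7.53). Cnot10 was 8.72 in the brain stem of tumor mouse 5 at ZT7 (others 8.99 to 9.08). Csnk2a2 was 10.19 in the hippocampus of vehicle mouse 6 at ZT7 (others 10.36 to 10.38).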

How the results depend on the processing

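Of the counts of called reference genes, those for the pairs of regions were 8, 5 and 7 with no replicate block and 8, 5 and 6 with the mouse as a fixed replicate block, against 9, 6 and 7. With no replicate block, the counts for time, tumor and their interaction over the regions did not move. Leaving out 1 mouse each gave 8 to 9, 5 to 7 and 6 to 7. For time of day over the regions these fits called 1 to 3 genes, in hypothalamus 0 to 1, and in hippocampus and brain stem 1 each. For tumor over the regions they called 0 to 1, and 0 for tumor within regions, the interaction and the time difference between regions. Centred on the 13 reference probes, 0 were called for time in hypothalamus, where Lars was -0.21 (adjusted p = 0.062). Centred on the 12 without Lars, 1 was called over the regions and 0 in hypothalamus. Fits of tumor mice alone or of vehicle mice alone called 0 for time in each region, with Lars at -0.29 to -0.12 and fewer samples by construction. Centring on the 13 probes turned the sign of Lars between hippocampus and hypothalamus (0.11, adjusted p = 0.0024) and of Gusb between hypothalamus and brain stem (-0.016, adjusted p = 0.79), and of Supt7l between hippocampus and hypothalamus (0.06) and Asb10 between hypothalamus and brain stem (-0.10), called in neither fit. It added calls of Lars, Mto1, Tbp and Csnk2a2 and lost that of Asb10 between hippocampus and hypothalamus (-0.37, adjusted p = 0.094). The cause was not tested. With the RNA covariates Gusb between hypothalamus and brain stem (0.09, adjusted p = 0.29) and both calls of Asb10 were lost, and Tbp was gained between hippocampus and hypothalamus (0.14, adjusted p = 0.027). Of the values of single genes, 64 lost and 9 gained a call, and 226 of 3358 turned in sign, 224 of them called in neither fit. The SD within regions stayed under the panel median for 9 genes with medians subtracted, with quantiles set within regions, over genes with a mean of at least 5 and without Asb10. Depth is unknown, and dim Asb10 is the least certain.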
